A study of Mus musculus with 6 samples.

Results

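The 7 genes described here, Ccn1, Junb, Klf10, Dusp6, Btg2, Ifrd1 and Ets2, are immediate early and growth-factor response genes that were measured in whole mouse hearts. They were picked by gene symbol, Ccn1 also under its older symbol Cyr61. The platform annotation holds 13 probe sets for them, of which 7 had values, 1 for each gene, and 6 were blank in the table used here. They are 7 of the 494 genes that had a value and a single symbol, and all 7 were kept, because no filter on dim probe sets was applied. The members, and the remark in their rule that they may vary together across arrays, were set with earlier results of these data known. Their differences between genotypes and their covariation are therefore given as a description.

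The study compared 3 wild-type hearts with 3 hearts of Pgc1b knockout mice, 1 Affymetrix 3' expression array per heart, with labels that call the hearts of each genotype biological replicates. Both genotypes were on a mixed sv129 and C57BL/6 background, were kept with free access to food and water, and had their hearts snap frozen. Pgc1b, now named Ppargc1b, encodes a coactivator of nuclear receptors in mitochondrial metabolism, and its own transcript is not analysed here, so the genotype labels have no check against it. The labels used here give neither the design of the allele nor an age. Over the gene probe sets with values, not whole arrays, the medians of the 6 arrays lay between 7.45 and 7.61 on the log2 scale. The cardiac actin Actc1, the 1 measured gene of a list of 13 heart muscle markers, lay between 14.09 and 14.15 on all 6 arrays. In whole tissue, fewer cells of a type and less RNA per cell cannot be told apart.

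Immediate early genes are transcribed from factors already present in the cell when a growth factor, a hormone or stretch activates kinase cascades such as the Ras, Raf, MEK and ERK relay. Their messenger RNAs are short-lived, so their levels can rise and fall quickly. In heart muscle this class is known to respond to pressure load, adrenergic drive and loss of blood flow. The 7 genes fall into transcription factors (Junb, Klf10, Ets2), a secreted signal (Ccn1), a feedback inhibitor of ERK (Dusp6) and regulators of growth and differentiation (Btg2, Ifrd1).

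Promoter sequence was at hand in RefSeq for 6 of the 7 genes on GRCm38.p6, from 250 bases before to 50 bases after the annotated start, and for Klf10 none was matched. Shown are those of Btg2, the gene with the widest spread between hearts, of Junb, whose values followed Btg2 most closely in rank, and of Ifrd1, the gene with the largest difference between genotypes. Capitals mark every match, on either strand, to the cAMP response element TGACGTCA, to the shorter site TGACG within it and to the TATA box TATAAA. The shorter site is part of the full element, so the run of capitals in Btg2 holds both.
Btg2 promoter (chr1:134079106-134079405, minus strand): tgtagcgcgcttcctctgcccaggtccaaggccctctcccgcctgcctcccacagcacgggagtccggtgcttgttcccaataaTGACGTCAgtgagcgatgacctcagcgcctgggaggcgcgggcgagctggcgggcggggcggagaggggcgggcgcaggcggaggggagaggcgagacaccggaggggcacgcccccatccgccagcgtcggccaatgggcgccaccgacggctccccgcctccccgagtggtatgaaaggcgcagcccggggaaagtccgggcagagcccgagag
Junb promoter (chr8:84978699-84978998, minus strand): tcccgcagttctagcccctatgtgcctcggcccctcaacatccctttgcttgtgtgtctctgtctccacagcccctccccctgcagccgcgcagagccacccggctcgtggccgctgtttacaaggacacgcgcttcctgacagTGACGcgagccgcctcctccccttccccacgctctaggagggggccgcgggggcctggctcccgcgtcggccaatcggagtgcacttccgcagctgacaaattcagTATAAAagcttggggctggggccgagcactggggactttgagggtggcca
Ifrd1 promoter (chr12:40223140-40223439, minus strand): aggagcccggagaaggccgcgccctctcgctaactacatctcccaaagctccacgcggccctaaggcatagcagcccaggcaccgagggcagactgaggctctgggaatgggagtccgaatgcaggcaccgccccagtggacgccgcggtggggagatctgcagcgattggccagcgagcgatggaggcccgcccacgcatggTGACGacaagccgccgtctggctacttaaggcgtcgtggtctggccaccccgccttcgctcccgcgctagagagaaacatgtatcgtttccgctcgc

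Btg2 was the only 1 of the 6 with the full element TGACGTCA, 166 bases upstream of its start, and 1.88% of 27025 RefSeq promoters of this length and 4.28% of the promoters of the measured genes held one. The shorter site TGACG was present in Ccn1, Junb, Btg2, Ifrd1 and Ets2 and had no match in Dusp6. It was found in 21% of all promoters in the table and in 39% of the promoters of the measured genes. The 6 promoters had a GC content between 57% and 72%, beside a median of 52.7% for all promoters. That of the promoters of the measured genes was not computed, so no GC content particular to the 6 can be read from this. TATAAA was matched in Ccn1, 25 bases upstream of the start, and in Junb, at the start itself, and in 14.2% of all promoters and 9.07% of those of the measured genes. The other motifs searched on both strands had no match in these 6 windows. They included the CArG box of serum response factor, found in 1.57% of all promoters and 2.27% of those of measured genes. Next were the AP-1 site TGANTCA (7.93% and 5.54%) and the ETS site CCGGAA (15.2% and 33.5%), with shares in the same order. The rest were the early growth response site GCGGGGGCG (2.92% and 4.79%) and the element TCAAGGTCA of the oestrogen-related receptors (0.407% and 0.252%). The shorter ETS core GGAA was not searched.

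Ifrd1 stood apart from the other 6 genes, with every knockout heart above every wild-type heart. Btg2 varied more within the genotypes than any other measured gene. The highest heart was knockout replicate 2 for Ccn1 and Klf10, knockout replicate 3 for Dusp6 and wild-type replicate 1 for Junb. Ets2 stayed nearly level in all 6 hearts. Fitted together with all measured genes in limma, 0 of the 7 were called at an adjusted p under 0.05, where 0% of the 494 genes were called. At an unadjusted p under 0.05 there was 1 of the 7, Ifrd1, beside 57 of all genes or 11.5%, and 5.67% of all genes had such a p and a higher mean in the knockout. The groups did not overlap in 1 of the 7, or 14.3%, beside 96 of all genes or 19.4%. Neither share of the 7 can be read as more than the background.

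**Figure D1:**
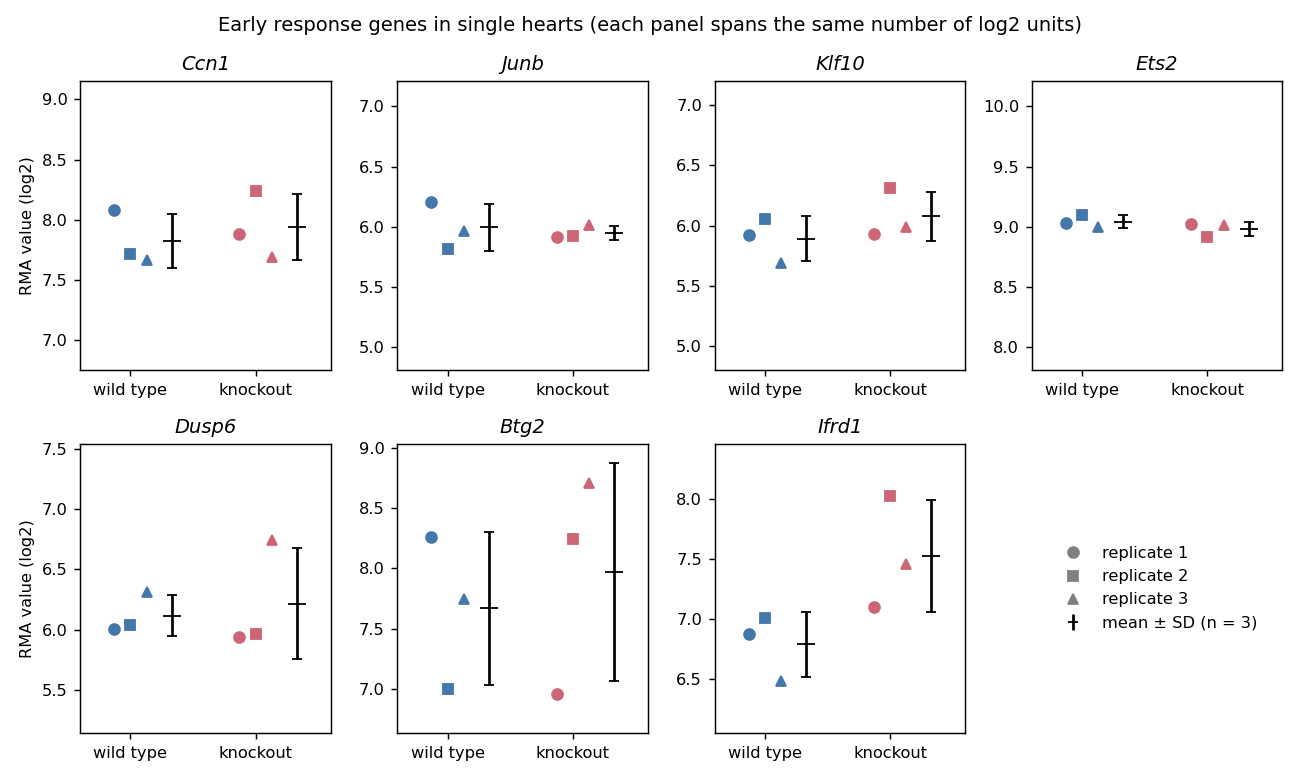
RMA values on the log2 scale (y axis) of the 7 early response genes in single hearts, by genotype (x axis), with a panel per gene, all of the same height in log2 units. Points are hearts, symbols give the replicate number, and bars are mean ± SD of 3 hearts. The genotypes are separate only in Ifrd1, and the points of Btg2 are spread widest.

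Among the transcription factors, Junb is a subunit of the AP-1 dimer that binds DNA together with Fos proteins. Its values were 6.20, 5.82 and 5.97 in wild-type replicates 1, 2 and 3 and 5.91, 5.92 and 6.02 in knockout replicates 1, 2 and 3, on the log2 scale as are all levels and differences below. Wild-type replicates 1 and 2 were the highest and the lowest of all 6 hearts, and the knockout hearts lay between them. The wild-type level was 5.996 ± 0.20 and the knockout level 5.95 ± 0.06 (SD, n = 3 each), a difference of -0.04 (95% interval -0.29 to 0.20). This difference was 0.06 without wild-type replicate 1, 0.06 with the mean of the hybridisation spikes (control RNAs added before hybridisation) as a covariate and 0.0025 with array weights, so no direction can be given.

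Klf10, a zinc finger factor first known as an early target of TGF-beta, was at 5.93, 6.06 and 5.69 in wild-type and 5.93, 6.31 and 5.99 in knockout hearts. Knockout replicate 2 was the highest and wild-type replicate 3 the lowest, and the groups overlapped. The difference was 0.19 (95% interval -0.12 to 0.50), a knockout level of 114% of wild type. It kept its sign in all 13 alternatives run for this gene, from 0.07 without knockout replicate 2 to 0.39 with the spike covariate. The trended prior variance, the replicate block and the mean of probe sets could not change it.

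Ets2, an ETS family factor activated by phosphorylation through the Ras pathway, was at 9.03, 9.10 and 8.998 in wild-type and 9.02, 8.92 and 9.01 in knockout hearts. The highest and the lowest heart differed by only 1.14-fold. The difference was -0.06 (95% interval -0.22 to 0.10), the narrowest interval of the 7. It was below 0 in all 14 alternatives, at -0.12 with further quantile normalization, -0.10 after median centring and -0.09 with the spike covariate. It was smallest without knockout replicate 2, at -0.03. The trended prior variance, the replicate block, the mean of probe sets and the dim filter could not change it. The SD of Ets2 within genotypes, 0.06, was below the 0.11 that is the median of all 494 genes, whereas the other 6 genes were above that median.

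Ccn1 encodes a secreted matrix protein that binds integrins and is a known target of serum response factor and of YAP. It was at 8.08, 7.72 and 7.67 in wild-type and 7.89, 8.24 and 7.70 in knockout hearts. Knockout replicate 2 and wild-type replicate 1 were the highest, so high values occurred in both genotypes. The group levels were 7.82 ± 0.23 and 7.94 ± 0.28 (SD, n = 3), a difference of 0.12 (95% interval -0.26 to 0.50). Without knockout replicate 2 it was -0.03, and with the spike covariate 0.54. The suffix x_at of its probe set marks by Affymetrix convention a set in which some probes may also match other transcripts.

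Dusp6 encodes a phosphatase of the cytoplasm that inactivates ERK and is itself induced by ERK. It was at 6.00, 6.04 and 6.31 in wild-type and 5.94, 5.96 and 6.74 in knockout hearts. Knockout replicate 3 was the highest of the 6 and knockout replicates 1 and 2 were the lowest, a range of 1.75-fold within 1 genotype. The difference of 0.10 (95% interval -0.41 to 0.60) rested on that heart. Without knockout replicate 3 it was -0.17, and both remaining knockout hearts then lay below all wild-type hearts. With the spike covariate it was -0.37.

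Btg2 encodes an antiproliferative protein that links messenger RNAs to the CCR4-NOT deadenylase and is a known target of p53. It was at 8.26, 6.997 and 7.74 in wild-type and 6.96, 8.25 and 8.71 in knockout hearts. Hearts of either genotype were near 7 and above 8, and the highest and lowest, both knockouts, differed by 3.35-fold. Its SD within genotypes, 0.78, ranked 1 of the 494 genes, and its range over the 6 hearts ranked 3. The groups were at 7.67 ± 0.64 and 7.97 ± 0.91 (SD, n = 3), a difference of 0.30 whose 95% interval ran from -0.80 to 1.41. The difference was 0.81 without knockout replicate 1, 0.17 without knockout replicate 2, -0.06 without knockout replicate 3, 0.60 without wild-type replicate 1, -0.03 without wild-type replicate 2, 0.67 with array weights and 0.39 with the spike covariate. The direction of Btg2 thus changed with the hearts that were included.

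Ifrd1 encodes a transcriptional coregulator related to developmental regulators of muscle and nerve, and is induced by growth factors in cultured cells. It was at 6.88, 7.01 and 6.49 in wild-type and 7.10, 8.02 and 7.46 in knockout hearts. All 3 knockout hearts were above all 3 wild-type hearts, by a margin of less than 0.1 between knockout replicate 1 and wild-type replicate 2. Of all genes, 9.51% were higher in the knockout without overlap. These were 47 genes against 49 lower ones. After centring each array on its median over the gene probe sets with values, they were 23 against 55. The group levels were 6.79 ± 0.27 and 7.53 ± 0.46 (SD, n = 3), a difference of 0.73 (95% interval 0.18 to 1.28) and a ratio of 1.66. In size this difference ranked 2 of the 494 genes. Its adjusted p in limma was 0.347, and 0.20 to 0.594 over the alternatives, so it was not called in any of them. The difference was 0.49 without knockout replicate 2, 0.95 without knockout replicate 1 and 1.06 with the spike covariate. It stayed above 0 in all 14 alternatives. Of these, the trended prior variance, the replicate block, the mean of probe sets and the dim filter could not change it, and each returned 0.73. The groups stayed apart in the 10 alternatives in which overlap was counted. Leaving out an array, the dim filter and the mean of probe sets could not make them overlap. The SD of Ifrd1 within genotypes, 0.38, ranked 12 of 494.

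**Figure D2:**
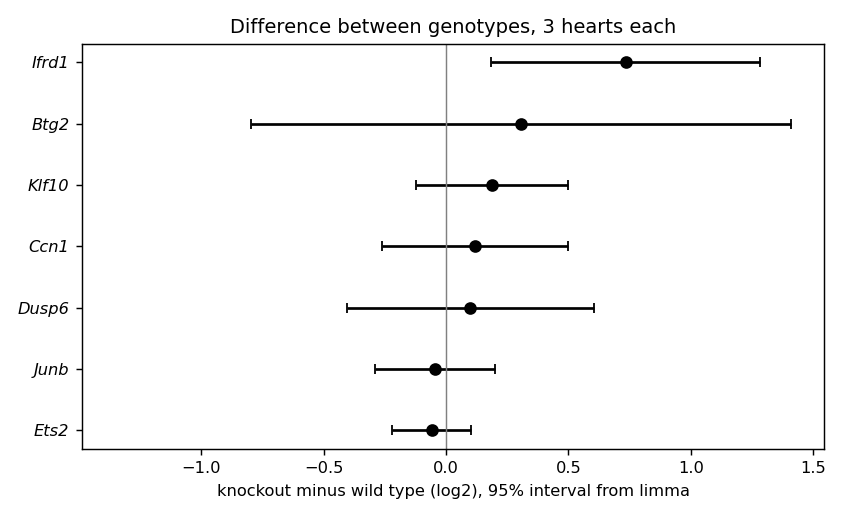
Knockout minus wild-type difference on the log2 scale (x axis) for each early response gene (y axis), with the 95% interval from limma and 3 hearts per genotype. The interval of Ifrd1 runs from 0.18 to 1.28, and those of the other 6 genes include 0.

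Taken by direction, 5 of the 7 genes had higher means in the knockout and 2, Junb and Ets2, had lower means. The share of all genes with a higher mean was 52.4%. The median difference was 0.12 over the 7 genes and 0.01 over all 494. Within the 7, Ifrd1 and Btg2 had the largest differences, and they also had the widest spread within genotypes.

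**Figure D3:**
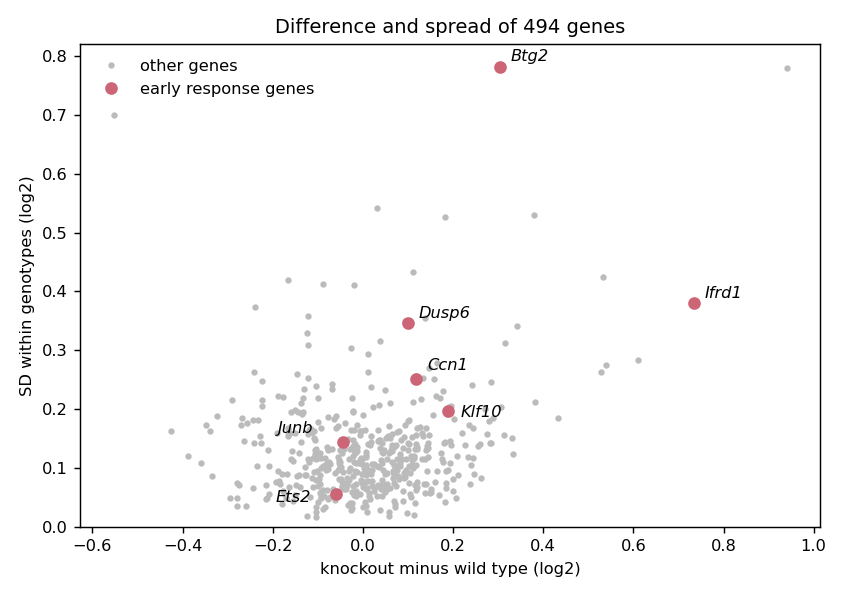
SD within genotypes (y axis, log2) against the knockout minus wild-type difference (x axis, log2) for 494 genes, with a point per gene and the early response genes in red. Btg2 lies at the top with an SD of 0.78, Ifrd1 lies to the right with a difference of 0.73, and Ets2 lies near the bottom with an SD of 0.06.

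The genes did not rise and fall as a block across the 6 hearts. Over the 21 pairs of genes, Pearson's r of the array values ran from -0.61 to 0.92, with 11 pairs above 0 and a median of 0.01. The median over all 121771 pairs of measured genes was 0.03, and 52.1% of those pairs were above 0. With the genotype means removed the median was 0.07 for the 7 genes and 0.04 for all genes. All values of an array share its RNA preparation and normalization.

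Klf10 and Ifrd1 had the highest correlation, with r = 0.92 and a Spearman rho of 0.83 over 6 arrays, and r = 0.96 with the genotype means removed. Both were highest in knockout replicate 2 and lowest in wild-type replicate 3. Without the 2 arrays farthest from the median of Klf10, which are these, r was 0.20. Leaving out the extreme arrays narrows the range of values, so a changed r, here and below, cannot tell what a relation rests on. Ccn1 shared both extremes with them, at r = 0.65 with Klf10 and r = 0.59 with Ifrd1. Without the 2 arrays farthest from the median of Ccn1, r was 0.266 with Klf10 and 0.265 with Ifrd1. Junb and Btg2 had the same rho of 0.83 as Klf10 and Ifrd1, at r = 0.64. Without the 2 arrays farthest from the median of Junb, r for this pair was 0.70. Dusp6 and Btg2 shared their highest heart, knockout replicate 3, and their lowest, knockout replicate 1, at r = 0.57, and r = -0.08 without the 2 arrays farthest from the median of Dusp6. Ccn1 and Dusp6 went in opposite directions, at r = -0.61. These are the highest and lowest of 21 relations, and they are descriptions of 6 hearts.

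**Figure D4:**
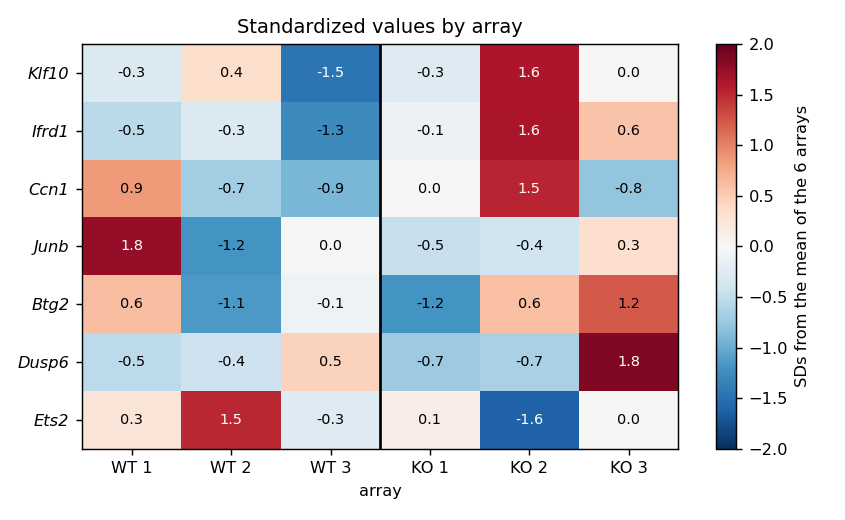
Values of the 7 early response genes (y axis) on each of the 6 arrays (x axis), as SDs from the gene's mean over the arrays, with red above and blue below the mean. Klf10, Ifrd1 and Ccn1 share their highest array, knockout replicate 2, and Dusp6 and Btg2 share knockout replicate 3.

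Per heart, the mean of the 7 values was 7.20, 6.96 and 6.98 in wild-type replicates 1, 2 and 3 and 6.965, 7.374 and 7.375 in knockout replicates 1, 2 and 3. Knockout replicates 2 and 3 were the highest, while knockout replicate 1 was at the level of wild-type replicates 2 and 3. The genotypes overlapped, at 7.05 ± 0.13 and 7.24 ± 0.24 (SD, n = 3), a difference of 0.19. Knockout replicate 2 was the highest heart for 3 of the 7 genes, knockout replicate 3 for 2, and wild-type replicates 1 and 2 for 1 each.

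Array controls differed between the same hearts. The hybridisation spikes, a measure of array handling, averaged 10.15, 9.84 and 9.69 on the wild-type and 9.55, 9.68 and 9.32 on the knockout arrays, all knockout arrays being lower. The poly-A spikes, which pass through labelling with the RNA, were at 6.91, 7.56 and 6.76 on the wild-type and 7.61, 7.32 and 6.49 on the knockout arrays. The 3' minus 5' difference of Actb, which reflects how intact and how evenly amplified the RNA was, came to 0.75, 0.74 and 0.77 in wild-type and 0.63, 0.73 and 0.51 in knockout hearts. Knockout replicate 3, the highest heart for Btg2 and Dusp6, had the lowest value of these 3 measures. The 3' minus 5' difference of Gapdh ran otherwise, at -0.02, 0.14 and 0.12 in wild-type and 0.20, -0.0044 and 0.03 in knockout hearts, with knockout replicate 1 highest and wild-type replicate 1 lowest. Knockout replicate 2, the highest for Ccn1, Klf10 and Ifrd1, was closest to the wild-type arrays in the spikes of hybridisation and in Actb. Because all knockout arrays were lower in the hybridisation spikes, the differences given with these as a covariate cannot tell spikes and genotype apart. The part of the array controls in the values of the 7 genes was not tested.

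**Figure D5:**
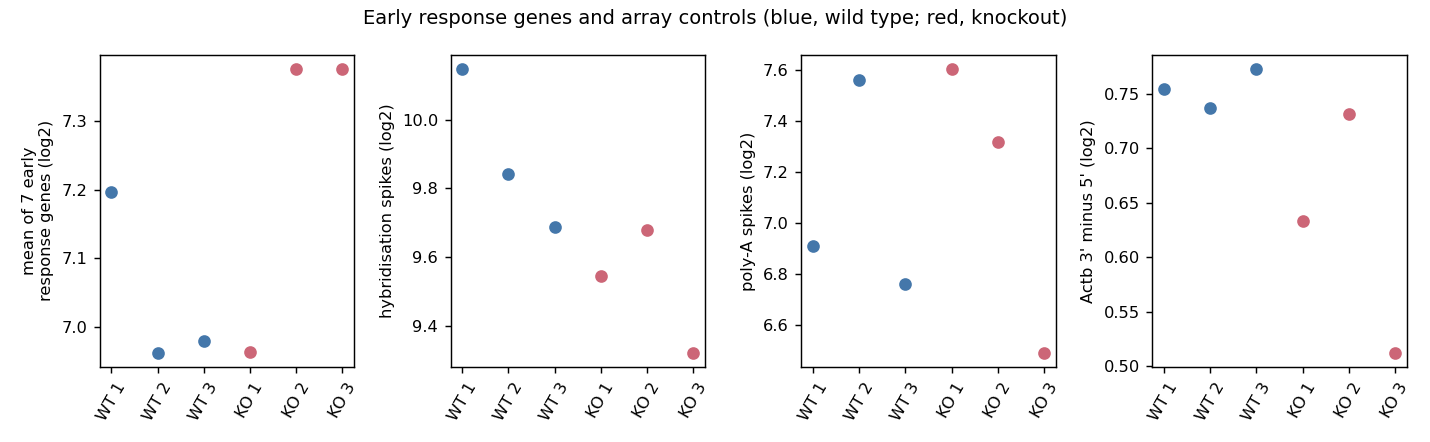
Mean of the 7 early response genes, mean of the hybridisation spikes, mean of the poly-A spikes and 3' minus 5' difference of Actb (y axes, log2) on each of the 6 arrays (x axes), with a point per array. Knockout replicates 2 and 3 are highest in the first panel, and knockout replicate 3 is lowest in the other panels.

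The genes whose 6 array values most resembled the mean of the 7 standardized genes were, by Pearson's r over 6 arrays and among the other 487 genes, Stip1 (r = 0.98), Cct7 (r = 0.97), Hspa4 (r = 0.965), Arpc1a (r = 0.95) and Atp9a (r = 0.94). Stip1 encodes a cochaperone of Hsp70 and Hsp90, Cct7 a subunit of the cytosolic chaperonin, Hspa4 a member of the Hsp110 family, Arpc1a a subunit of the Arp2/3 complex and Atp9a a P4-type ATPase. Stip1, the closest, was at 7.73, 7.53 and 7.50 in wild-type and 7.50, 7.74 and 7.72 in knockout hearts, so wild-type replicate 1 and knockout replicates 2 and 3 were its high hearts. The most opposite were Marcksl1 (r = -0.96), Reg2 (r = -0.94) and Polr1b (r = -0.93). With 6 arrays and this many genes, close matches are the extremes of a long list.

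Other genes of the same responses were scarce in the table. None of the 41 genes in a list of immediate early transcription and RNA-binding factors, such as Fos and Egr1, none of the 30 in a list of other rapidly induced genes and none of the 21 in a list of p53 targets and antiproliferative genes is analysed here. Of 26 genes for feedback and output of ERK, 3 were measured and 0 were called. Errfi1, a feedback inhibitor of the EGF receptor, was at 6.90, 7.16 and 7.27 in wild-type and 7.31, 7.92 and 7.92 in knockout hearts. Its groups did not overlap and its difference was 0.61 (95% interval 0.19 to 1.03, adjusted p = 0.347 in limma), and 0.38 with the spike covariate. Spry1, an inhibitor of Ras signalling, differed by 0.04 (95% interval -0.20 to 0.29) and Bcar3, an adaptor of integrin signalling, by -0.23 (95% interval -0.47 to 0.02). The median of the 3, 0.04, lay at Spry1 and was -0.05 without knockout replicate 2 and below 0 after centring of the arrays.

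Of a list of 51 growth factors, receptors and members of the Ras-MAPK relay, 3 were measured. All had lower means, with a median of -0.07 and 0 called. The median was -0.03 without knockout replicate 2 and -0.16 with the spike covariate. Ppp2r1a, the scaffold of protein phosphatase PP2A, differed by -0.09 (95% interval -0.31 to 0.12, and -0.01 without knockout replicate 1) and the MAP kinase kinase Map2k2, which phosphorylates ERK, by -0.07 (95% interval -0.24 to 0.10). The growth factor gene Igf2 differed by -0.02 (95% interval -0.21 to 0.16). Its sign changed without knockout replicate 2 (0.04) and without wild-type replicate 2 (0.0015). Growth factor genes outside this list were also measured. Kitl differed by 0.28 (95% interval 0.04 to 0.53, adjusted p = 0.383 in limma) and its receptor gene Kit by 0.04. Kitl was higher in the knockout without overlap, as were 9.51% of all genes. Hdgf differed by 0.13, Ptn by 0.01 and Mdk by -0.08. Among targets of serum response factor and YAP, a class that also holds Ccn1, 2 of 23 genes were measured, with differences of 0.18 for the adhesion protein vinculin, Vcl, and 0.03 for the actin gene Actg1. Without knockout replicate 2 that of Vcl was 0.07. The sign of Actg1 changed after centring, with the spike covariate, without knockout replicate 2 and without wild-type replicate 1. Tgfbi, a matrix protein induced by TGF-beta as Klf10 is, was the 1 measured gene of 22 in its list and differed by 0.31 (95% interval -0.01 to 0.62).

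Of genes for other stress responses few were measured. All 3 measured genes of 14 that glucocorticoids induce, Fkbp5, Errfi1 and Sgk1, had higher means in every alternative run, and 0 were called. Of all genes, 52.4% had a higher mean in the knockout. The median of the 3 was 0.61, which is the difference of Errfi1 given above with the ERK genes. That median was 0.36 without knockout replicate 2 and 0.38 with the spike covariate. The dim filter, the mean of probe sets, the trended prior variance and the replicate block returned the main differences of these 3 genes. Fkbp5, a cochaperone of the glucocorticoid receptor, was at 5.69, 6.14 and 6.40 in wild-type and 6.16, 8.18 and 6.71 in knockout hearts, with its highest value in knockout replicate 2 as for Klf10, Ifrd1 and Ccn1. Its difference was 0.94 (95% interval -0.16 to 2.04), and 0.36 without knockout replicate 2. Sgk1, a kinase of the insulin and steroid response, differed by 0.27 (95% interval -0.04 to 0.58). Dnaja1, a cochaperone of Hsp70, was the 1 measured gene in a list of 15 heat shock genes. It was at 8.69, 9.07 and 8.79 in wild-type and 8.77, 9.48 and 9.90 in knockout hearts. Its difference was 0.53 (95% interval -0.08 to 1.14), 0.27 without knockout replicate 3 and 0.22 with the spike covariate. Of chaperone genes outside this list, Hspa4 differed by 0.14, Cct7 by 0.12, Stip1 by 0.06 and Cct3 by -0.05. In the lists of endoplasmic reticulum stress and hypoxia 2 genes each were measured, with median differences of 0.13 and -0.10. The chaperones Hspa5 and Hsp90b1 differed by 0.11 and 0.15, and the hypoxia factor Hif1a and its target Adm by -0.11 and -0.10. The signs of Hspa5, Hsp90b1 and Adm changed when single arrays were left out, and Hif1a was at -0.00044 without knockout replicate 3 and 0.00028 with the spike covariate. Over all 16 measured genes of the pathway lists, 10 had higher and 6 lower means, 0 were called, 1 had an unadjusted p under 0.05, and the median was 0.08.

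Markers of other cell types were measured for 4 genes, the endothelial Tie1, the red cell genes Bpgm and Car1 and the neutrophil gene Mpo. Their differences were -0.08, 0.31, 0.13 and 0.10, and 0 of the 4 were called. Mpo and Car1 were dim, with wild-type means of 3.50 and 3.92 where the lowest of all values was 2.56. Their differences have no check against background. Bpgm was highest in knockout replicates 1 and 3, at 8.06 and 7.91, and was at 7.37 in knockout replicate 2. Markers of fibroblasts, smooth muscle, macrophages, lymphocytes, fat and skeletal muscle are not analysed here.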

How the data were processed

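The authors' deposited values are on the log2 scale, 1 column per array, and GCOS, Partek and RMA are named in the submitters' processing notes, with no version or order. Per the labels' protocols, a small amount of total RNA was amplified as cDNA before labelling, so differences in amplification are part of the spread. RMA sets arrays to a shared distribution, so values are relative to the other genes. Of 45101 rows, 707 held values (1.57%), of which 643 were probe sets for genes. A single symbol was given for 597, which matched RefSeq (GRCm38.p6) by gene ID and covered 494 genes. The brightest probe set stood for a gene. The submitters' genome build: not given in the sources used here.

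All 494 genes were fitted in limma 3.58.1 (R 4.3.3; lmFit, eBayes, 2-sided) on the deposited values, without a covariate, with Benjamini-Hochberg adjustment over all genes and a call at an adjusted p under 0.05. The fit was tested on simulated data. The p-values weigh each difference against the variance of the gene between these hearts, which eBayes draws toward that of all genes. The number of arrays limits the precision. The members and gene lists were chosen with earlier results of these data known. Named were the members, the 5 most and 3 least similar genes and all measured genes of the lists closest to the members. From the other lists the 2 with the largest differences were named, and also Igf2 for its change of sign. Kitl, Kit, Hdgf, Ptn, Mdk and Cct3 were named from outside the lists. The alternatives were further quantile normalization, median centring, a filter on dim genes, the mean of probe sets, a trended prior variance and array weights. Others were a replicate block, a spike covariate (mean of 18 hybridisation spike probe sets) and leaving out each array. The quantile normalization and the centring used only the 643 probe sets for genes with values, not whole arrays.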

Additional observations from a re-analysis of the deposited data

How the results depend on the processing

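With 3 hearts per genotype the intervals are wide, and no detection calls were used, so dim genes such as Junb, Klf10 and Dusp6 have no check against background. These 3 fell below the dim filter, which kept 370 genes at a mean of at least 6.45, so no mean over the 7 genes was computed there. Klf10, Ifrd1 and Ets2 kept their direction in every alternative run for them, while Ccn1 changed sign in 1, Dusp6 and Btg2 in 2 and Junb in 3. The trended prior variance, the replicate block and the mean of probe sets could not change a sign, nor could the dim filter where it was run. These settings returned the main difference of each of the 7 genes. The mean difference over the 7 genes ranged from 0.12 to 0.33 on leaving out single arrays and from 0.15 to 0.28 in the other alternatives. Medians of lists with under 3 measured genes were not recomputed. A trended prior variance called 1 gene, not among the 7. Leaving out each array gave 34 to 74 genes at an unadjusted p under 0.05, with 34 without knockout replicate 2, and 125 to 168 genes without overlap, with 150 without wild-type replicate 1 and 168 without knockout replicate 1, where groups of 2 arrays separate more easily. Centring each array gave 14 higher and 40 lower genes at an unadjusted p under 0.05, where the deposited values gave 28 and 29.

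The titles number the hearts of each genotype 1 to 3 without pairing them. Same-numbered arrays had correlations of their deviations of -0.15, -0.08 and 0.18, and 2 of the 6 arrays correlated best with their own number. A replicate block gave 48 genes at an unadjusted p under 0.05 and 0 called.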

Other observations

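The single genes closest to each early response gene, named here after their values were seen, differed from member to member. For Klf10 they were Hnrnpul2 (r = 0.99 over 6 arrays) and the splicing factor Srsf3 (r = 0.98), and for Ifrd1 the chaperonin subunit Cct4 (r = 0.98) and the nucleic acid binding protein Cnbp (r = 0.96). For Ccn1 they were Tbc1d15 (r = 0.94) and Txnip (r = 0.94), an inhibitor of thioredoxin. Txnip was at 11.12, 10.83 and 10.35 in wild-type and 10.81, 11.38 and 10.44 in knockout hearts, highest in knockout replicate 2 and lowest in wild-type replicate 3 as Ccn1 was.

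For Btg2 the closest were the microtubule protein gene Map4 (r = 0.95) and Smad1 (r = 0.95), a mediator of BMP signals. Smad1 was at 5.56, 4.41 and 5.07 in wild-type and 4.50, 5.17 and 5.47 in knockout hearts, with its low hearts in both genotypes being those of Btg2, wild-type replicate 2 and knockout replicate 1. For Dusp6 they were Ldhb (r = 0.94) and Ywhaz (r = 0.93), for Junb the transcription factor gene Ebf1 (r = 0.92) and Sgpl1 (r = 0.86), and for Ets2 Fkbp8 (r = 0.95) and Naxe (r = 0.93). These are the 2 highest of 493 correlations for each gene, over 6 arrays, and are given as a description.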
